A study of Homo sapiens with 4 samples.

Results

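CXCL14 and 9 other chemokine and cytokine genes were measured by RNA sequencing in NCI-H520 cells, a widely used cell line of human squamous lung carcinoma. The genes are the chemokines CXCL14, CXCL1, CXCL2, CXCL3, CXCL5, CXCL8 and CCL20 and the cytokines IL32, IL18 and LIF, which are 10 of the 28277 genes in the deposited count table. They were taken by name, and they were selected on earlier values from the same 4 libraries: CXCL14 was known for its high read count, and CXCL3 and IL32 were known for their differences between the groups. Their levels and fold changes are therefore descriptions. In the Hx1R8 group, 2 libraries, the cells had received Hx1R8 at 10 µM over 12 h. In the control group, named Vehicle, also 2 libraries, they had received ultrapure water, for a time that the labels do not give. Both groups were wild type by label and grew in RPMI-1640 with 15% fetal bovine serum, so every value comes from a single line in culture, without the stroma and leukocytes of a tumour. The labels do not say what Hx1R8 consists of. By its title the series asks about SOX2 condensates and resistance to chemotherapy.

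Chemokines are small secreted proteins that direct the movement of leukocytes through G protein-coupled receptors. CXCL1, CXCL2, CXCL3, CXCL5 and CXCL8 carry a glutamate-leucine-arginine motif before their paired cysteines and attract neutrophils through CXCR2, and CXCL8 also acts on CXCR1. Their genes, like that of the CCR6 ligand CCL20, are classical targets of NF-kB in stimulated epithelium. CXCL14 lacks that motif, is made by many resting epithelia, and has no settled receptor.

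Total counts lay between 17259403 and 20920857 per library, and 14482 genes passed the low-count filter. Vehicle replicate 2 stood furthest from the rest: the chi-square per gene was 2.30 to 2.97 for its 3 pairs and 1.49 to 1.80 for the other 3 pairs. Of 8 squamous lung markers, SOX2 was at 510 ± 17.4 CPM (the read count scaled to a common library size) in Hx1R8 and 528 ± 18.7 CPM in Vehicle (SD, n = 2 each). The keratin gene KRT6A had 307 and 358 reads in Hx1R8 and 348 and 341 reads in Vehicle, KRT5 had 20 and 40 reads in Hx1R8 and 25 and 33 in Vehicle, and TP63 had 10 and 15 in Hx1R8 and 7 and 8 in Vehicle. PKP1 had 2 to 5 reads per library, KRT17 had 2 reads in all, and KRT14 and DSG3 had 0. Of 18 immune cell markers, 7 had 0 reads, among them PTPRC, CD3D and MS4A1, and the 18 together summed to 16.0 and 18.8 CPM in Hx1R8 and 18.7 and 18.2 CPM in Vehicle. The stem cell factor receptor KIT, which is not restricted to immune cells, gave the largest part of that sum. Of 18 fibroblast and endothelial markers 8 were tested, led by COL1A1 with 126 to 171 reads per library, and COL3A1, PECAM1 and EMCN had 0 reads. The 18 together summed to 18.7 and 19.5 CPM in Hx1R8 and 19.1 and 20.5 CPM in Vehicle.

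The promoters of the neutrophil-attracting chemokines are shown because they share a motif that the CXCL14 promoter window lacks. RefSeq (GRCh38.p14) gave promoter windows for 8 of the 10 genes. The stretches printed run from 150 to 11 bases before the transcription start, 5′ to 3′ on the gene's strand. Capitals mark GGAATTTCC and GGGNNNTTC, which are forms of the NF-kB motif, TGANTCA, the AP-1 motif, and TATAAA, the TATA box. The first 3 were searched on both strands and overlap one another where the letters allow.
CXCL1: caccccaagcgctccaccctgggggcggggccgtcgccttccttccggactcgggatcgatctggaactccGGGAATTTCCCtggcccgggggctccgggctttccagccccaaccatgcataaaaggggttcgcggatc
CXCL2: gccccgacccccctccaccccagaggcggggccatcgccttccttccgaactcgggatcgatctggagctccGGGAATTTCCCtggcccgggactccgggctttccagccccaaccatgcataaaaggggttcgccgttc
CXCL3: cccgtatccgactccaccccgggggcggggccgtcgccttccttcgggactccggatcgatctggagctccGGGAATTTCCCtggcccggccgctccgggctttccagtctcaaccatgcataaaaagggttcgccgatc
CXCL5: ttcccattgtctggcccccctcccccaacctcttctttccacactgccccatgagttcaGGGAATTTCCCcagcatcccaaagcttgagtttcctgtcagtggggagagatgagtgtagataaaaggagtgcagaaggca
CXCL8: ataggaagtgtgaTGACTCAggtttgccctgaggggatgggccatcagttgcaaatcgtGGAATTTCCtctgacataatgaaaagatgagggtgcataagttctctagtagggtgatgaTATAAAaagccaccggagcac
CCL20: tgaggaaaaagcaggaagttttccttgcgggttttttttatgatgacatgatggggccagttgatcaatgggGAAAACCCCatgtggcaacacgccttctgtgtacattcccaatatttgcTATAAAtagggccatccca
CXCL14: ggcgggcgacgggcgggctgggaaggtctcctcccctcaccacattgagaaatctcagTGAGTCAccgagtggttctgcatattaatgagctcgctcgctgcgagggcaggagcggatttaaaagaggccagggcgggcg

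The stretches lie at chr4:73869243-73869382 on the plus strand for CXCL1, chr4:74099206-74099345 on the minus strand for CXCL2, chr4:74038700-74038839 on the minus strand for CXCL3 and chr4:73998688-73998827 on the minus strand for CXCL5. Those of CXCL8 and CCL20 lie at chr4:73740419-73740558 and chr2:227813692-227813831 on the plus strand, and that of CXCL14 lies at chr5:135579002-135579141 on the minus strand. GGAATTTCC was present in the 250 bases before the start of CXCL1, CXCL2, CXCL3, CXCL5 and CXCL8, beginning 77 to 91 bases before it, whereas 0.413% of 35116 RefSeq windows of the same length held it. CCL20 and IL32 held GGGNNNTTC, as did CXCL1, CXCL2, CXCL3 and CXCL5 at the same place as GGAATTTCC, and 13.3% of all windows hold it. TATAAA was found for CXCL8 and CCL20, against 6.80% of all windows, and TGANTCA for CXCL8 and CXCL14, against 6.57%. Aligned on GGAATTTCC without gaps, the printed stretches of CXCL1 and CXCL3 were identical at 121 of 140 bases, those of CXCL1 and CXCL8 at 39 of 127. A match describes letters and not a bound site.

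CXCL14 was one of the most abundant messages of these cells, and its level was alike in all 4 libraries. It was counted at 57315 and 67804 reads in Hx1R8 and at 59982 and 56364 reads in Vehicle, which is 0.324 to 0.343% of each library. Scaled to library size, it was at 3329 and 3236 CPM in Hx1R8 and at 3428 and 3259 CPM in Vehicle. The groups overlapped, and the highest library exceeded the lowest by 1.06-fold. Per kilobase of listed exon (RPKM), CXCL14 averaged 1948 ± 39.2 in Hx1R8 and 1984 ± 70.9 in Vehicle (SD, n = 2 each). By mean RPKM over the 4 libraries it stood at rank 6 of 14482 tested genes. CXCL14 alone held 99.4 to 99.5% of the reads of the 10 genes in each library.

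CXCL14 lies on chromosome 5 (hg38, 135570681 to 135578991, minus strand), and its 1685 exon bases are shared with no other listed gene. Its nearest neighbour SLC25A48, a mitochondrial carrier gene on the opposite strand, starts 174 bases from it, so the printed CXCL14 stretch lies between the 2 genes. SLC25A48 averaged 10.2 RPKM over the 4 libraries, against 1966 RPKM for CXCL14. On the other side NEUROG1, a neurogenic transcription factor, had 1 read in all 4 libraries and TIFAB had 0. Among 2495 other tested genes with a mean of at least 100 CPM, the genes that moved most like CXCL14 over the 4 libraries were FARSB, CDK8 and YAP1, whose log2 deviations from their own mean differed from those of CXCL14 by at most 0.0070, 0.0072 and 0.0077. As many as 628 of the 2495 stayed within 0.05 of CXCL14 by this measure, so the pattern is a common one.

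**Figure D1:**
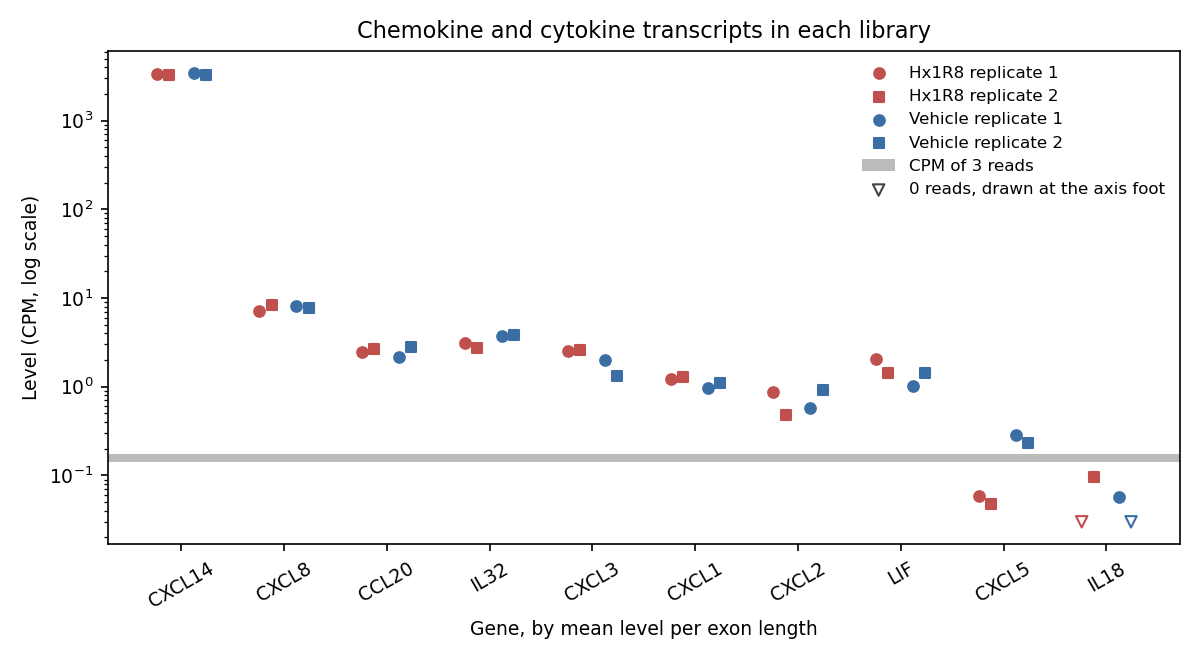
Level of each of the 10 genes in every library in CPM on a log axis, with Hx1R8 in red and Vehicle in blue; the grey band is the CPM of 3 reads and open triangles mark libraries with 0 reads. CXCL14 lies between 3236 and 3428 CPM, the other tested genes lie below 10 CPM, and CXCL5 and IL18 lie near or under the band.

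The neutrophil-attracting chemokines were all scarce. CXCL8 was the most abundant of them, with 122 and 175 reads in Hx1R8 and 142 and 134 reads in Vehicle. That is 7.09 and 8.35 CPM in Hx1R8 and 8.12 and 7.75 CPM in Vehicle, and the groups overlapped. CXCL3 had 43 and 55 reads in Hx1R8, against 35 and 23 in Vehicle, and both Hx1R8 libraries, at 2.50 and 2.62 CPM, lay above the 2.00 and 1.33 CPM of Vehicle. The Vehicle libraries themselves differed by 1.50-fold for CXCL3, with Vehicle replicate 2 the lowest of the 4. CXCL1 had 21 and 27 reads in Hx1R8 and 17 and 19 reads in Vehicle, at 1.22 and 1.29 CPM in Hx1R8 and 0.972 and 1.10 CPM in Vehicle. Its groups did not overlap, but the gap between the nearest libraries was small. CXCL2 had 15 and 10 reads in Hx1R8 and 10 and 16 reads in Vehicle, with each group holding a high and a low library. CXCL5 had 1 read in each Hx1R8 library and 5 and 4 reads in Vehicle, and did not pass the filter. From 2 reads in Hx1R8 and 9 in Vehicle its ratio was 0.203, with an exact 95% counting interval of 0.0213 to 0.979. That interval covers counting error only, and both Hx1R8 values lie under 3 reads. Fitted without the low-count filter, CXCL5 had a log2 fold change of -2.30 (SE 1.35) and an adjusted p of 0.995 by edgeR.

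Together, CXCL1, CXCL2, CXCL3, CXCL5 and CXCL8 came to 11.7 and 12.8 CPM in Hx1R8 and to 11.9 and 11.3 CPM in Vehicle. CXCL1, CXCL2 and CXCL3 arose from a recent duplication, and in GENCODE v29 5.73% of the 50-base windows of CXCL1 coding transcripts, 9.24% of those of CXCL2 and 5.26% of those of CXCL3 also occur in another of the 3 genes. No window of 100 bases was shared. Without a stated read length, reads in the shared stretches cannot be assigned with certainty. Summed over the 3 genes, the counts were 79 and 92 in Hx1R8 and 62 and 58 in Vehicle. That is 4.59 and 4.39 CPM in Hx1R8 and 3.54 and 3.35 CPM in Vehicle. The sum includes CXCL3, so it is not separate from the difference of that gene.

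The 5 genes lie in a cluster of 358627 bases on chromosome 4 (hg38, 73740569 to 74099195) with 10 listed genes. CXCL8 opens the cluster (73740569 to 73743716, plus strand) and CXCL2 closes it (74097040 to 74099195, minus strand), with CXCL1 (73869393 to 73871308), CXCL5 (73995642 to 73998677) and CXCL3 (74036591 to 74038689) between them. The intervening CXCL6 had 1 read in all, and the platelet chemokines PF4, PF4V1 and PPBP and the pseudogene PPBPP2 had 0. Reads were thus spread unevenly along the cluster, and 4 of its 10 genes passed the filter.

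CCL20, which draws CCR6-bearing dendritic cells and lymphocytes, was present at a low level that did not separate the groups. It lies on chromosome 2 (227813842 to 227817556) and had 42 and 56 reads in Hx1R8 and 38 and 49 reads in Vehicle. The levels were 2.44 and 2.67 CPM in Hx1R8 and 2.17 and 2.83 CPM in Vehicle, with both Hx1R8 libraries between the Vehicle libraries.

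Of the cytokines, IL32 and LIF were detected in every library and IL18 was at the edge of detection. IL32, a protein that induces other cytokines, lies on chromosome 16 (3065403 to 3069819). In its coding transcripts 3.02% of the 50-base windows and 0.858% of the 100-base windows also occur in RNU1-125P. IL32 had 53 and 58 reads in Hx1R8 and 65 and 67 reads in Vehicle. At 3.08 and 2.77 CPM both Hx1R8 libraries lay below the 3.71 and 3.87 CPM of Vehicle. LIF, an interleukin-6 family cytokine that signals through LIFR and gp130, lies on chromosome 22 (30240453 to 30246759), and 95.6% of its exon sequence is its own. It had 35 and 30 reads in Hx1R8 and 18 and 25 reads in Vehicle, at 2.03 and 1.43 CPM in Hx1R8 and 1.03 and 1.45 CPM in Vehicle. Hx1R8 replicate 2 and Vehicle replicate 2 were nearly equal for LIF, so the groups overlapped. IL18, an interleukin-1 family cytokine matured by caspase-1, had 0 and 2 reads in Hx1R8 and 1 and 0 reads in Vehicle. All 4 values lie under 3 reads, which correspond to 0.143 to 0.174 CPM, so no fold is given for IL18.

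Set in order by RPKM, CXCL14 averaged 487-fold above CXCL8, the next of the 10. CXCL8 was at 3.65 to 4.30 RPKM over the 4 libraries, CCL20 at 2.60 to 3.40, IL32 at 1.75 to 2.45 and CXCL3 at 1.24 to 2.45. CXCL1 followed at 0.812 to 1.08 RPKM, CXCL2 at 0.428 to 0.830 and LIF at 0.266 to 0.525. CXCL14, CXCL8, CCL20, CXCL3 and LIF did not overlap with the next gene in this order. IL32 overlapped with CXCL3, CXCL1 with CXCL2, CXCL2 with LIF, and CXCL5 with IL18. By RPKM, CXCL3 stood above IL32 in both Hx1R8 libraries and below it in both Vehicle libraries. By CPM, IL32 stood above CXCL3 in all 4 libraries. Both genes were chosen with earlier results of these data known, so nothing is read from their order. The median of all tested genes was 6.52 RPKM, so CXCL14 was the only one of the 10 above it, and CXCL8 exceeded 40.1% of tested genes.

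**Figure D2:**
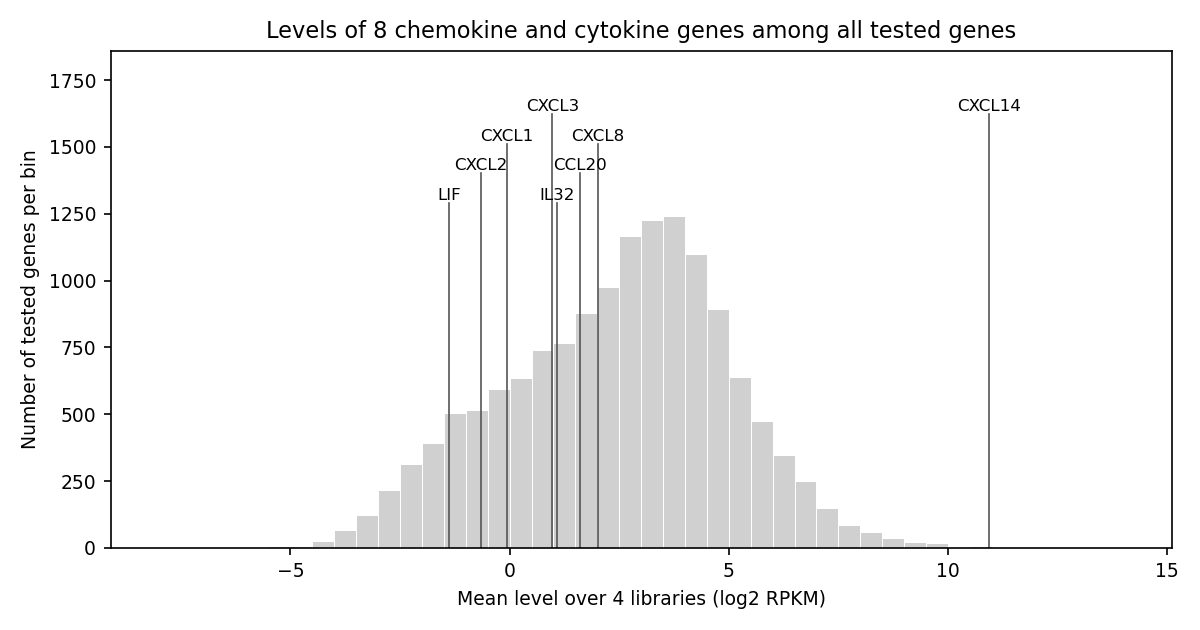
Number of tested genes by mean level over the 4 libraries, in bins of log2 RPKM, with lines at the 8 tested chemokine and cytokine genes. CXCL14 lies in the right tail at rank 6 of 14482, and the other 7 lie left of the median of 6.52 RPKM.

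The comparison of Hx1R8 with Vehicle was fitted over all genes with edgeR's quasi-likelihood test. Of 14482 tested genes 2 were called higher, which is 0.0138%, and 1 lower, which is 0.00691%, or 0.0207% in either direction at an adjusted p under 0.05. The called genes were TXNDC5, RNA28SN5 and IFI27. These counts moved with single libraries: 13 genes were higher and 18 lower without Vehicle replicate 2, and 41 higher and 38 lower without Vehicle replicate 1. There were 5 higher and 1 lower without Hx1R8 replicate 2, and 2 higher and 5 lower without Hx1R8 replicate 1. Of the 10 chemokine and cytokine genes 8 were tested and 0 were called, with 1 at an unadjusted p under 0.05, against 491 of all 14482, and DESeq2 and limma-voom also called 0. Of the 8, 4 had fold changes above 0 and 4 below. Their median log2 fold change was 0.0054, against -0.0018 over all tested genes. Both Hx1R8 libraries lay above both Vehicle libraries for 2 of the 8, against 14.7% of all tested genes, and below for 1 of the 8, against 15.2%. Since the genes were chosen with earlier results of these data known, nothing is read from the counts.

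CXCL14 had a log2 fold change of -0.03 (SE 0.05), and the 95% interval of its fold ran from 0.920 to 1.05. CXCL8 was at -0.03 (SE 0.13), with an interval of the fold from 0.815 to 1.18, and CCL20 at 0.04 (SE 0.22), from 0.752 to 1.40. These 3 were the only genes of the 8 whose interval lay within 1.5-fold of no change. CXCL3 had the largest positive value, 0.62 (SE 0.25), with an interval of the fold from 1.08 to 2.19, and IL32 the largest negative value, -0.38 (SE 0.19), from 0.585 to 1.01. LIF was at 0.46 (SE 0.30), from 0.908 to 2.10. CXCL1 was at 0.28 (SE 0.32) and CXCL2 at -0.19 (SE 0.43), the widest of all. The width followed the counts: CXCL14 rested on 241465 reads over the 4 libraries and CXCL2 on 51.

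**Figure D3:**
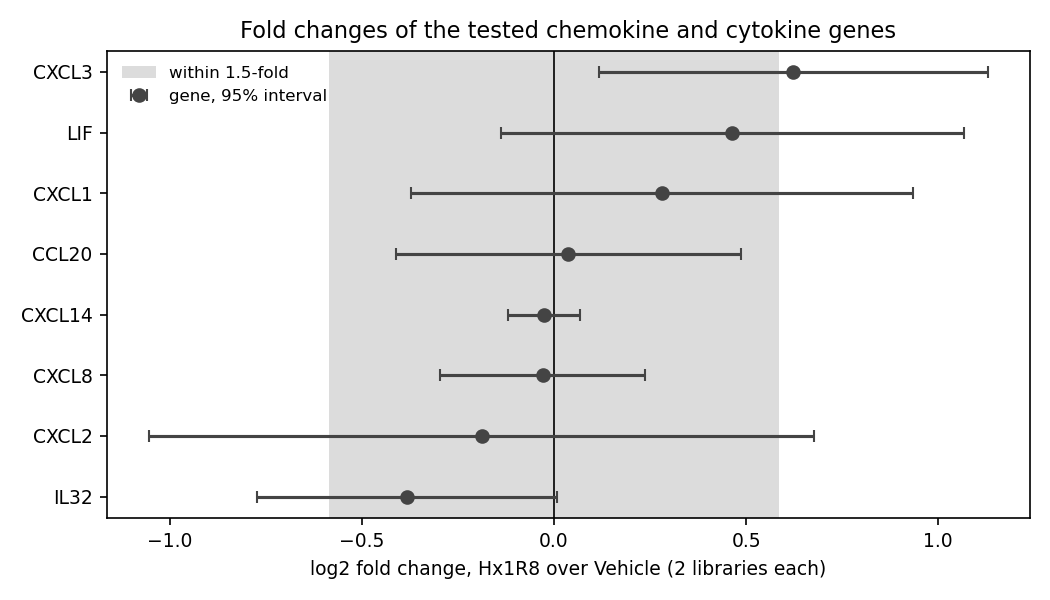
Fitted log2 fold change, Hx1R8 over Vehicle, of the 8 tested genes with 95% intervals from 2 libraries per group; the grey band marks less than 1.5-fold. The intervals of CXCL14, CXCL8 and CCL20 lie inside the band, and that of CXCL3 runs from 0.12 to 1.13.

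Single libraries carried much of the difference for the scarce genes. The log2 fold change of CXCL3 came to 0.95 when Vehicle replicate 1 was left out and to 0.36 when Vehicle replicate 2 was. That of LIF was 0.21 without Hx1R8 replicate 1 and 0.73 without Vehicle replicate 2. CXCL2 ran from -0.65 to 0.22 with 1 library left out, whereas IL32 stayed between -0.45 and -0.30 and CXCL1 between 0.19 and 0.37. CXCL14 stayed between -0.06 and 0.01. None of the 8 was called with any library left out, the lowest adjusted p by edgeR being 0.204, for CXCL3 without Vehicle replicate 1.

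**Figure D4:**
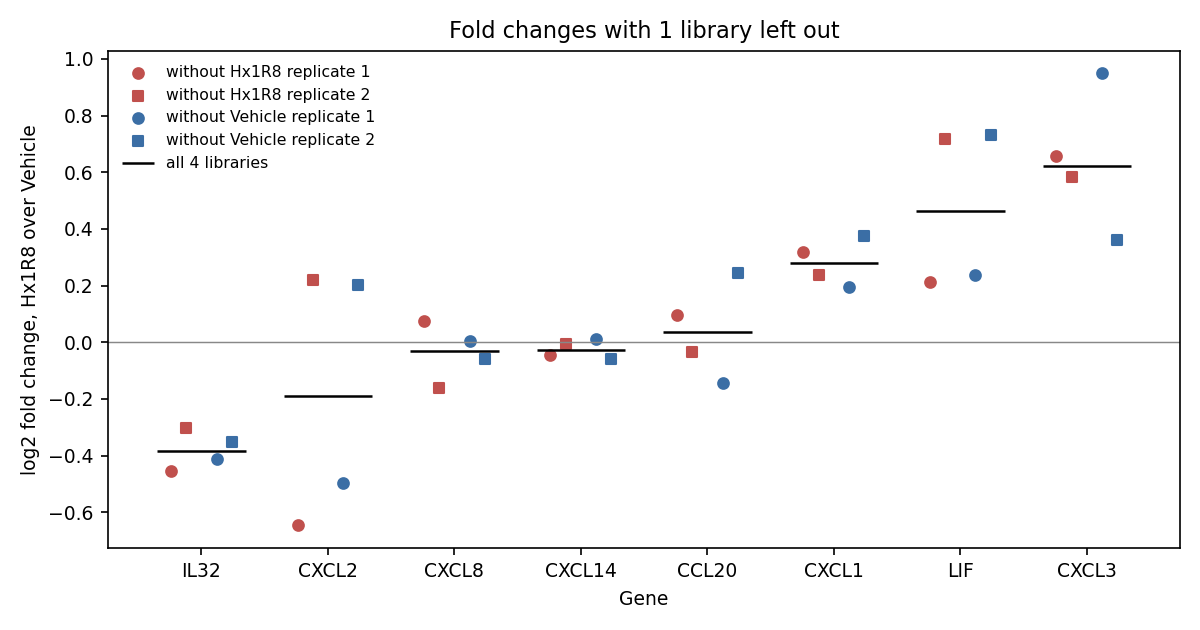
Log2 fold change, Hx1R8 over Vehicle, of each tested gene with all 4 libraries (black lines) and with each library left out (points). CXCL3, LIF, IL32 and CXCL1 keep their sign in all 4 cases, and CXCL2, CXCL8, CCL20 and CXCL14 cross 0.

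The wider pathway was described by 8 lists with 219 further genes, of which 112 were tested. None of the 112 was called by edgeR, against 0.0207% of all tested genes, and 2 had an unadjusted p under 0.05, against 491 of all 14482. DESeq2 and limma-voom also called 0. The median log2 fold change over the 112 was -0.01, with 51 above 0 and 61 below, and 93 of the 112 had intervals within 1.5-fold of no change. Over all tested genes 81.4% were bounded in that way.

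Most other chemokine genes had few or no reads. Of 41 further ligands, 38 averaged under 1 CPM in both groups, 20 of them with 0 reads, and 5 were tested. CCL2, which attracts monocytes, was abundant at 142 ± 2.77 CPM in Hx1R8 and 143 ± 1.83 CPM in Vehicle (SD, n = 2 each), with a log2 fold change of -0.01 (SE 0.05). CXCL16, a membrane-bound ligand of CXCR6, was at -0.03 (SE 0.09), XCL1 at -0.17 (SE 0.24), CXCL10 at 0.53 (SE 0.48) and CCL27 at 0.10 (SE 0.52). At 193 RPKM CCL2 came next to CXCL14 in level per length among the chemokines listed. The group of other interleukins and cytokines had 11 tested genes of 44, led by TGFA, an EGF receptor ligand, at -0.01 (SE 0.06) and TNFSF10, a death receptor ligand, at -0.02 (SE 0.09). IL12A had the highest value of that list at 0.73 (SE 0.44). In the same list 16 genes were listed at 0, including IL6 and MIF, both named after their values were seen. All exon bases of MIF are shared with its listed antisense neighbour. MIF is also listed on 2 reference sequences, with 1114 exon bases listed in all against 557 on chromosome 22. A listed 0 need therefore not mean that a transcript is absent, and the reason for the 0 was not tested.

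Receptors for these ligands were mostly near 0. CXCR1 had 0 reads and CXCR2 1 read in the 4 libraries, and CCR6 was at 0.365 ± 0.0235 CPM in Hx1R8 and 0.459 ± 0.159 CPM in Vehicle (SD, n = 2 each). CXCR1 and CXCR2 were singled out after their values were seen. CXCR4, the receptor of CXCL12, was the most abundant of 24 receptor genes at 67.1 and 64.6 CPM in Hx1R8 and 65.2 and 63.7 CPM in Vehicle, with a log2 fold change of 0.03 (SE 0.06). The scavenger receptor ACKR3 was at -0.21 (SE 0.14) and ACKR4 at 0.04 (SE 0.38), and these were the 3 receptors tested.

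The LIF pathway was present beyond its ligand. All 20 genes of the LIF and gp130 list were tested and 0 were called, with a median log2 fold change of -0.01 and 17 of 20 bounded within 1.5-fold. LIFR, the ligand-binding chain, was at 69.8 ± 5.44 CPM in Hx1R8 and 70.8 ± 2.34 CPM in Vehicle (SD, n = 2 each). IL6ST, which encodes gp130, was at 45.1 ± 0.616 CPM in Hx1R8 and 45.4 ± 3.16 CPM in Vehicle (SD, n = 2 each) and was named after its values were seen, as was SOCS3. The signal transducer STAT3 had a log2 fold change of -0.03 (SE 0.05) and its feedback inhibitor SOCS3 one of -0.13 (SE 0.28). IL11RA, the interleukin-11 receptor chain, had the smallest unadjusted p of the list at -0.25 (SE 0.12). It was at 9.87 and 9.88 CPM in Hx1R8 and at 9.83 and 13.6 CPM in Vehicle, so Vehicle replicate 2 alone stood off. Without Vehicle replicate 1 it was called at -0.47 (adjusted p = 0.0496 by edgeR), and in that setting Vehicle replicate 2 was the lone control.

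The genes that process and sense IL18 were partly present. Of 20 listed genes 13 were tested and 0 were called, with a median log2 fold change of 0.03. CASP1, which matures IL18, had 4 and 5 reads in Hx1R8 and 5 and 4 reads in Vehicle, and IL18RAP had 2 reads in all. Both were named after their values were seen. The adaptor kinase IRAK1 was at -0.02 (SE 0.05) and the pore-forming GSDMD at -0.09 (SE 0.07). The IL18 receptor chain IL18R1, also named after its values were seen, was at 0.17 (SE 0.18). IL1RAP, a co-receptor for other cytokines of the interleukin-1 family, had the highest value of the list at 0.73 (SE 0.27). It was at 2.45 ± 0.587 CPM in Hx1R8 and 1.50 ± 0.419 CPM in Vehicle (SD, n = 2 each). Its libraries did not overlap between the groups, and its adjusted p by edgeR was 0.9999.

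NF-kB components were expressed throughout. All 30 genes of the list were tested, 0 were called, and 29 had intervals within 1.5-fold of no change. The share bounded in that way was 81.4% over all tested genes and 20.3% over those under 4 CPM. It varied with the read count, so it is not read as a trait of the list. RELA, the main activating subunit, was at -0.07 (SE 0.05), the scaffold TNIP1 at -0.06 (SE 0.05) and the kinase MAP3K7 at 0.02 (SE 0.05). REL, another activating subunit, was at 43.2 and 44.5 CPM in Hx1R8 and 37.9 and 38.6 CPM in Vehicle. Its log2 fold change of 0.20 (SE 0.07) was the largest of the list, with an adjusted p of 0.9999 by edgeR. Of 25 target genes of NF-kB outside the chemokines 15 were tested and 0 were called, with a median of -0.02. TNFAIP2 was at -0.02 (SE 0.05) and SOD2, the mitochondrial superoxide dismutase, at -0.02 (SE 0.05). In that list 10 genes averaged under 1 CPM in both groups, among them 4 with 0 reads. Chemokine messages are also governed by their decay, and all 15 regulators of short-lived cytokine messages were bounded within 1.5-fold. ZFP36, which promotes the decay of such messages, had the lowest value at -0.12 (SE 0.13), and the deadenylase scaffold CNOT1 was at 0.04 (SE 0.05).

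**Figure D5:**
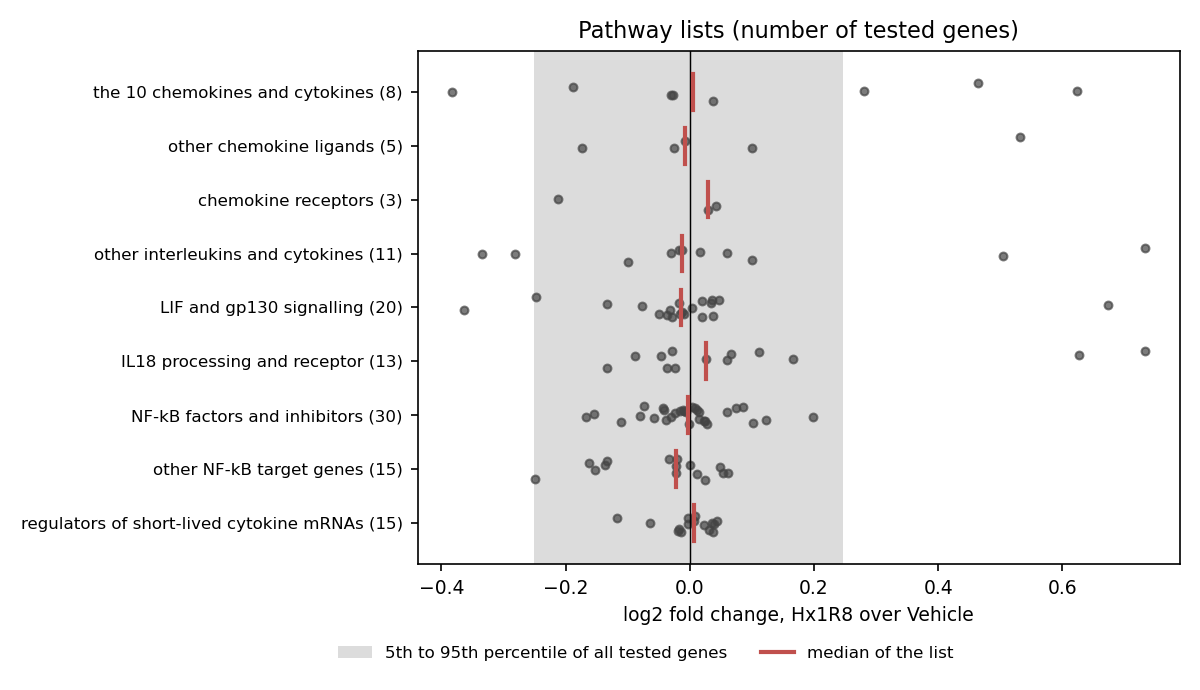
Log2 fold change, Hx1R8 over Vehicle, of every tested gene of the 10 chemokines and cytokines and of the 8 pathway lists, with list medians in red and the 5th to 95th percentile of all tested genes, -0.25 to 0.25, in grey. List medians run from -0.02 to 0.03, and CXCL3, LIF, IL12A and IL1RAP are among the genes outside the grey band.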

How the data were processed

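RNA was taken from NCI-H520 cells with TRIzol and 1.5 µg of total RNA entered each library, per the labels. The authors deposited raw read counts per gene, 1 column per library, with exon coordinates and summed exon lengths. Alignment used STAR 2.7.9 and hg38, per the submitters' processing notes. No source used here states the counting tool, annotation, read length or strand setting, so reads of a gene and of an overlapping antisense gene cannot be separated. The 2 lines of 1 broken gene row were left out, which left 28277 genes. A row without a gene name would have been left out by the same step, so reads in such rows were not counted.

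Counts were tested across all genes with edgeR 4.0.16 (R 4.3.3): quasi-likelihood test, TMM factors, filterByExpr, group as the only term, two-sided, Benjamini-Hochberg threshold 0.05. The fit was tested on simulated data with the same dispersion set for every gene, which may differ from these libraries, so that test does not vouch for the fit here. CPM was scaled by TMM, and RPKM is CPM per kilobase of listed exon, which joins the exons of all isoforms. A floor of 3 counts was 0.143 to 0.174 CPM; floors and counting intervals cover counting error only. Alternatives used limma 3.58.1 and DESeq2 1.42.0. The labels do not say that replicates were separate cultures, so p-values measure the spread between these libraries, which may be technical. No pair of libraries agreed within sampling noise.

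The members and lists were chosen with earlier results of these data known. The rule named all members, up to 5 most abundant and 2 smallest-p genes per list, and the cluster neighbours; the text names a part of these. Other names were chosen after their values were seen.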

Additional observations from a re-analysis of the deposited data

How the results depend on the processing

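The count of the 10 chemokine and cytokine genes past the threshold stayed at 0 under all 11 alternatives. DESeq2 called 1 gene higher over the whole table. With 1 library left out, edgeR called 2 to 41 genes higher and 1 to 38 lower, and 0 to 1 of the pathway genes, the 1 being IL11RA without Vehicle replicate 1; the lone sample is then assumed to vary like the other group. The libraries share only a replicate number: deviations of same-numbered libraries from their group means correlated at 0.0329 over all genes and at 0.0953 over 6397 abundant genes. A fit with a replicate block called 2 genes higher, 1 lower and 0 of the 10. Of 90 recomputed log2 fold changes entered for the 8 tested genes, 8 differed in sign from the main fit, and the cause was not tested. The 90 include the fit of the summed counts of CXCL1, CXCL2 and CXCL3, entered once under each of these genes. With 1 library left out, CCL20 ran from -0.142 to 0.243, CXCL14 from -0.0608 to 0.0103, CXCL2 from -0.646 to 0.221 and CXCL8 from -0.163 to 0.0758. CCL20 was at -0.04 without Hx1R8 replicate 2 and -0.14 without Vehicle replicate 1, CXCL14 at 0.01 and CXCL8 at 0.0047 without Vehicle replicate 1, and CXCL8 at 0.08 without Hx1R8 replicate 1. CXCL2 was at 0.22 without Hx1R8 replicate 2 and at 0.20 without Vehicle replicate 2. The sum of CXCL1, CXCL2 and CXCL3 was at 0.38, opposite in sign to CXCL2. That value is counted among the 8 but is not a fold change of CXCL2 itself. With CPM in place of RPKM, IL32 moved to place 3, CCL20 to 4, LIF to 6, CXCL1 to 7 and CXCL2 to 8. A filter of 1 CPM in 2 libraries left CXCL2 without a value. Of the 3249 genes under 4 CPM 20.3% were bounded within 1.5-fold and 69.2% within 2-fold. Of the 10, CXCL3, IL32, LIF, CXCL1 and CXCL2 were tested but not bounded within 1.5-fold.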
